A study of Mus musculus with 33 samples.

Results

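The genes described here are 10 genes of epithelial cells, Cdh1, Epcam, Cldn6, Cldn7, Krt8, Krt18, Krt19, Grhl2, Grhl3 and Esrp1, which encode proteins of cell junctions, keratins and the regulators that maintain them. They were taken by name and not by a cutoff on their values, but with earlier results of these data known. All 10 were among the 14717 genes of the deposited RNA table. P19 is a mouse embryonal carcinoma line, derived from a tumour, whose undifferentiated cells resemble those of the early embryo. D3RA cells (day 3) and D6RA cells (day 6) were differentiating after 1 µM all-trans retinoic acid (RA), which turns this line towards neurons. D3DMSO and D6DMSO cells were at the same days with 1% dimethyl sulfoxide (DMSO), which turns it towards mesoderm and heart muscle, and D0 cells were undifferentiated. Each of the 5 groups had 3 libraries, 15 in all. The labels give the treated cells a period of 2 days as embryoid bodies, aggregates in suspension, before return to culture flasks in maintenance medium. They describe no such step for D0 cells, so aggregation and agent cannot be told apart in a comparison with D0, and since DMSO is itself an inducer, D3DMSO and D6DMSO are another route and not untreated cells. All groups are of 1 line, carry no genetic change made for the study that the labels name, and were measured in bulk. The series calls the libraries of a group biological replicates and does not name separate cultures; p-values then measure the spread between these libraries, which may be technical.

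An epithelium is a sheet of cells joined side by side. E-cadherin, the product of Cdh1, joins neighbouring cells at adherens junctions through catenins, claudins seal the space between cells at tight junctions, and keratins of type I (Krt18, Krt19) pair with keratins of type II (Krt8) to form filaments that are anchored at desmosomes. The early embryo's epiblast is such a sheet, and its cells lose E-cadherin both where they leave it to form mesoderm and, in exchange for N-cadherin, where they form the neural plate. Grainyhead-like factors (Grhl2, Grhl3) and the splicing regulator Esrp1 maintain the epithelial state, and Snail and Zeb factors repress Cdh1.

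Total counts per library, in mega (M), ran from 3.55 to 9.82 M for D3RA and from 5.86 to 6.87 M for D3DMSO. They ran from 38.2 to 49.6 M for D6RA, from 39.0 to 44.5 M for D6DMSO, and from 7.13 to 9.88 M for D0. Mitochondrial genes had 0 counts in every D0 and D3 library and 41.6 to 55.8% of the counts in the D6 libraries, so that day 6 and this difference between libraries cannot be told apart where D6 is set against D3. In D3RA libraries 2 and 3, 4 genes (among them Lars2 and Gm15564) held 39.5 and 45.7% of the non-mitochondrial counts, against 1.97% in D3RA library 1. The same genes held 32.8 and 24.0% in D3DMSO libraries 2 and 3, against 3.09% in D3DMSO library 1. They held 23.2% in D0 library 2, against 9.15 and 8.86% in D0 libraries 1 and 3. Levels are given as CPM, counts scaled to a common library size of 1 M, recovered from the deposited log2 values, without correction for gene length, so levels are compared between groups and not between genes. The summed level of 8 measured pluripotency markers was 143 to 168 CPM in D3RA, 614 to 1170 CPM in D3DMSO and 1800 to 2080 CPM in D0; Sox2, also a neural gene, averaged 147 CPM in D3RA and so made up most of the sum there. That of 10 neural markers was 2590 to 2670 CPM in D6RA, against 150 to 165 CPM in D6DMSO. That of 8 markers of heart and smooth muscle was 5.99 to 7.70 CPM in D6RA, against 529 to 646 CPM in D6DMSO. All 8 were lower in D6RA, but most of the D6DMSO sum was Acta2 and Tagln (291 and 154 CPM on average). At day 3 this muscle sum was 62.3 to 75.3 CPM in D3DMSO, below the 88.4 to 140 CPM of D0. At day 6, then, each route's own marker sum was the higher where its label says.

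All 10 genes fell in RA-treated cells, tested with limma on the whole table and called at a Benjamini-Hochberg adjusted p below 0.05. All 10 fell in D3RA against D3DMSO, where 62.1% of all genes were called, 30.7% higher and 31.4% lower. All 10 fell in D6RA against D6DMSO, where 65.8% were called, 32.6% higher and 33.1% lower. All 10 fell in D3RA against D0, where 68.9% were called, 35.0% higher and 33.9% lower. Counts of called genes in other lists and among markers are to be read beside these same shares. The median log2 fold change of the 10 genes was -4.08 in D3RA against D3DMSO and -5.10 in D6RA against D6DMSO, beside medians of -0.01 and -0.02 over all genes in the same comparisons. With DMSO the genes parted: in D6DMSO against D3DMSO the 3 keratin genes rose, 5 other genes fell and Grhl2 and Cldn7 were not called. The D3RA comparisons share their libraries with each other, as do those with D0, so their values are given side by side and not as separate evidence. Fewer cells that express a gene and less RNA per cell cannot be told apart in these bulk libraries.

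**Figure D1:**
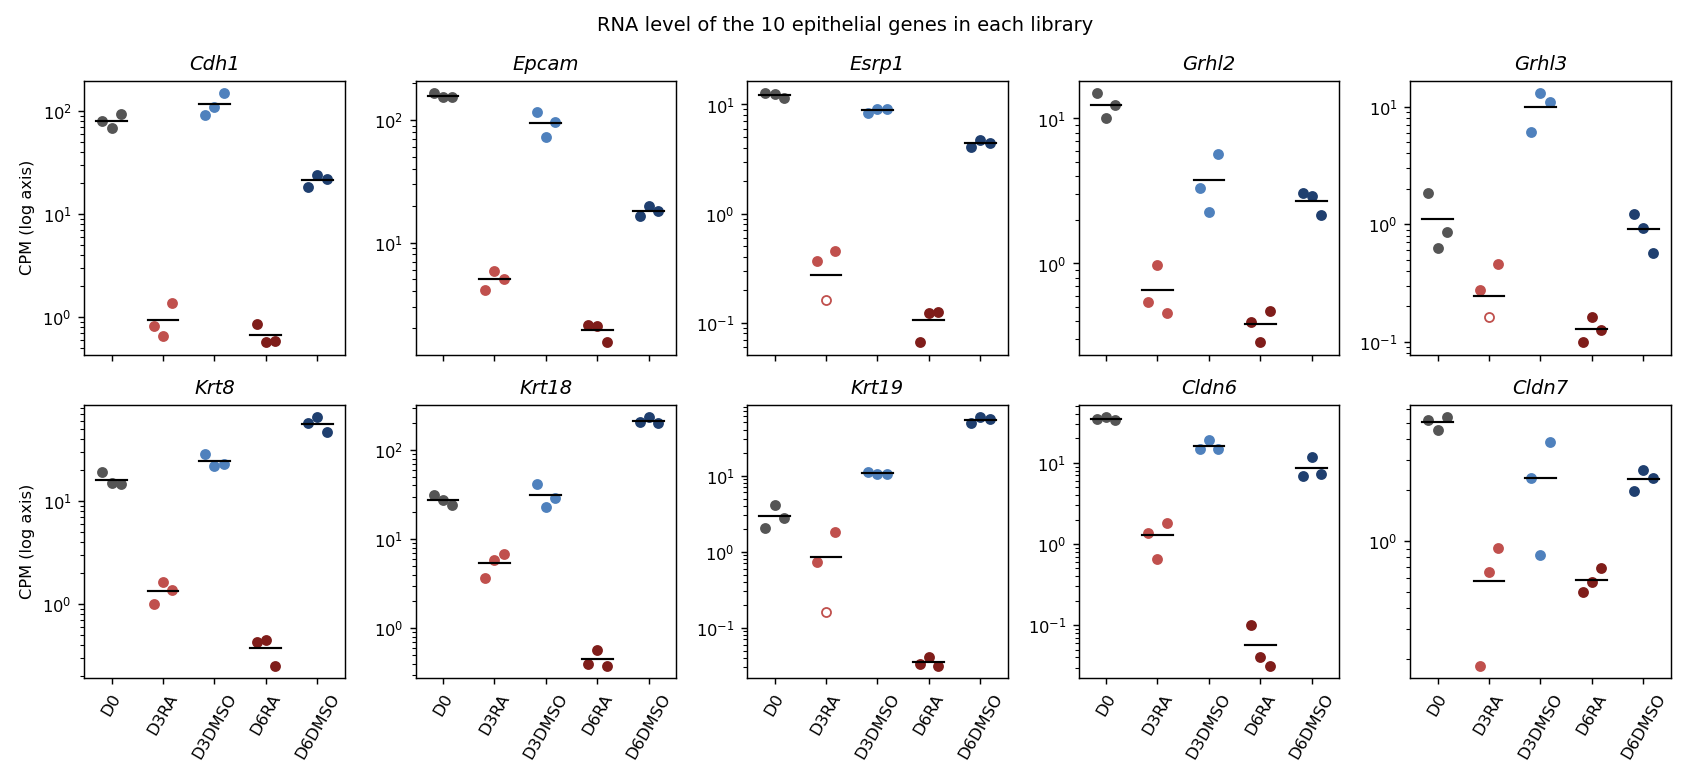
CPM of each gene (log axis) in each library of the 5 groups, with 1 point per library and a line at the group mean; open points mark libraries with 0 counts, drawn at the level of 0.5 counts. D3RA and D6RA points lie below the DMSO points of the same day for 9 of the 10 genes at day 3 (Cldn7 overlaps) and for all 10 at day 6. The share of all genes whose libraries separate in this way is not given here.

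Cdh1 encodes E-cadherin, which holds cells of the epiblast together. Cdh1 had 0.820, 0.651 and 1.37 CPM in the D3RA libraries, against 92.5, 110.2 and 149 CPM in the D3DMSO libraries and 81.2, 68.7 and 93.6 CPM in the D0 libraries. The D3RA libraries held 14 counts of Cdh1 in all, and each lay far below the lowest library of either other group. The group mean was 0.947 ± 0.376 CPM in D3RA, 124-fold below the 117 ± 28.9 CPM of D3DMSO (SD, n = 3 each), a log2 fold change of -6.79 ± 0.24 (SE, adjusted p = 7.84e-13). Against D0 the fold change was -6.28 ± 0.24 (adjusted p = 1.53e-12). D3DMSO and D0 overlapped, and their difference of 0.51 ± 0.24 was not called (adjusted p = 0.0843), although it was called in 4 alternative fits, among them the fit of these groups alone (adjusted p = 0.0231).

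At day 6 Cdh1 had 0.861, 0.574 and 0.595 CPM in the D6RA libraries, against 18.3, 24.3 and 21.8 CPM in the D6DMSO libraries. D6RA was again below D6DMSO without overlap, by 31.8-fold (log2 fold change -4.97 ± 0.24, adjusted p = 1.58e-11). In D6DMSO, Cdh1 was 5.46-fold lower than in D3DMSO (-2.43 ± 0.24, adjusted p = 4.48e-07), and each D6DMSO library lay below each D0 library. Between the RA groups, D6RA and D3RA overlapped; the fold change of -0.61 was called (adjusted p = 0.0358) but lost its call in 10 alternatives, among them the fit without D3RA libraries 2 and 3 (-0.34, adjusted p = 0.290), which leaves 1 D3RA library assumed to vary like the others.

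Epcam encodes an adhesion molecule of the epithelial cell surface that embryonic stem cells also carry. Epcam had 4.10, 5.86 and 5.02 CPM in the D3RA libraries, against 116, 72.7 and 96.2 CPM in the D3DMSO libraries and 165, 154 and 154 CPM in the D0 libraries. The 3 groups did not overlap, with D0 highest and D3RA lowest. The log2 fold change was -4.20 ± 0.17 in D3RA against D3DMSO (adjusted p = 3.35e-12) and -4.95 ± 0.17 in D3RA against D0 (adjusted p = 3.83e-13). Epcam was also lower in D3DMSO than in D0, by -0.76 ± 0.17 (adjusted p = 0.00129). In D6 libraries it had 2.12, 2.09 and 1.53 CPM with RA, against 16.5, 19.9 and 18.03 CPM with DMSO, a 9.48-fold lower mean in D6RA. Its order of group means, D0, D3DMSO, D6DMSO, D3RA and D6RA from high to low, had no overlap between any neighbours. The promoter of Epcam is shown here for its CACCTG motif, the E-box that Snail and Zeb factors bind, found on either strand (CACCTG or CAGGTG, in capitals). The bases are the 250 before the gene's start in RefSeq (GRCm38.p6, chr17:87635729-87635978, + strand), a later build than the mm9 named for the reads.
Epcam: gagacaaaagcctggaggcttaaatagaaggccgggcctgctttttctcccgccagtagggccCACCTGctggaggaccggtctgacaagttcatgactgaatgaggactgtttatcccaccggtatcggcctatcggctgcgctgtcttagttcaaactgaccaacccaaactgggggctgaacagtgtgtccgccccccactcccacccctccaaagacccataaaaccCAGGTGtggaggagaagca

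The E-box was searched because it is the motif through which Cdh1 is known to be repressed; Cdh1, Esrp1, Grhl2 and Krt19 were not matched to a promoter entry. Entries were matched for 6 of the 10 genes (7 entries, of which 2 are for Cldn7). Each of the 6 genes had CACCTG or CAGGTG in the 250 bases of at least 1 entry, and 6 of the 7 entries held it, beside 17.2% of the 32851 promoters in the table. In Epcam it began 187 and 19 bases before the start, in Cldn6 93 bases and in the second Cldn7 entry 97 and 57 bases before it. The motif AACCNGTT of Grainyhead-like factors, searched on both strands with N for any base, was in none of the 7 entries and in 1.79% of all promoters. These matches describe the letters of these windows and show no binding.

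Claudins 6 and 7 are membrane proteins of tight junctions, and Cldn6 is known from epithelia of the embryo. Cldn6 had 1.37, 0.651 and 1.83 CPM in the D3RA libraries, against 14.8, 18.9 and 14.7 CPM in the D3DMSO libraries and 35.1, 36.3 and 33.7 CPM in the D0 libraries. The 3 groups did not overlap. D3RA was below D3DMSO by a log2 fold change of -3.60 ± 0.35 (adjusted p = 1.32e-07), and D3DMSO was below D0 by -1.12 ± 0.35 (adjusted p = 0.0110), a call that was lost after thinning of all libraries to 1 depth (adjusted p = 0.0796). At day 6 Cldn6 had 0.0993, 0.0410 and 0.0313 CPM in the D6RA libraries, 5 counts in all, against 6.93, 11.6 and 7.35 CPM in the D6DMSO libraries. D6RA was 151-fold below D6DMSO (-6.92 ± 0.35, adjusted p = 1.94e-11) and 22.4-fold below D3RA (-4.26 ± 0.35, adjusted p = 1.71e-08). The fall from D3DMSO to D6DMSO, -0.93 ± 0.35 (adjusted p = 0.0297), lost its call without D3DMSO replicate 2 and without D6DMSO replicate 1 or 3 (adjusted p = 0.0951 to 0.105).

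Cldn7 had the smallest fold change of the 10 genes between RA and DMSO at both days. It had 0.182, 0.651 and 0.913 CPM in the D3RA libraries, at 2 counts each, against 2.35, 0.821 and 3.87 CPM in the D3DMSO libraries and 5.23, 4.56 and 5.39 CPM in the D0 libraries. D3RA overlapped with D3DMSO through a single library of each, and D0 lay above both. The fold change of D3RA against D3DMSO was -1.79 ± 0.53 (adjusted p = 0.00753) and missed the threshold in a fit of those groups alone (adjusted p = 0.0532). D6RA averaged 0.586 ± 0.0967 CPM and D6DMSO 2.33 ± 0.338 CPM (SD, n = 3 each), a log2 fold change of -1.96 ± 0.53 (adjusted p = 0.00368), close to the values of the same treatments at day 3. The D3DMSO against D0 call for Cldn7 (-1.31, adjusted p = 0.0456) was lost in 8 alternatives; without D3DMSO replicate 2, its lowest library, the fold change was -0.73.

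Of the 7 claudin genes in the table, Cldn3 and Cldn4 followed Cldn6 in falling with RA at both days. Cldn4, a claudin of polarized epithelia, was listed at 0 counts in all D3RA libraries and averaged 2.02 ± 0.231 CPM in D3DMSO (SD, n = 3), and Cldn3 averaged 0.461 ± 0.189 CPM in D3RA and 2.87 ± 1.26 CPM in D3DMSO. Cldn1 and Cldn15 were higher in D3RA than in D3DMSO, by 3.56 and 1.53 on the log2 scale. Cldn12, which had a group mean of 62.5 to 97.6 CPM throughout, was not called in D3RA against D3DMSO (-0.18, adjusted p = 0.155) and fell in D6RA against D6DMSO (-0.47, adjusted p = 0.000999). In all, 2 of the 7 claudins rose and 4 fell in D3RA against D3DMSO, where 62.1% of all genes were called. In D6RA against D6DMSO, where 65.8% were called, 1 rose and 5 fell.

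Krt8 and Krt18 form the keratin pair of simple epithelia and are among the first keratins of the embryo. Krt8 had 1.00, 1.63 and 1.37 CPM in the D3RA libraries, against 28.6, 22.0 and 22.8 CPM in the D3DMSO libraries and 18.97, 14.8 and 14.7 CPM in the D0 libraries. Krt18 had 3.64, 5.86 and 6.85 CPM in the D3RA libraries, against 41.7, 23.2 and 29.3 CPM in the D3DMSO libraries and 31.1, 27.2 and 24.0 CPM in the D0 libraries. For both genes every D3RA library lay below every library of the other groups, and for Krt18 D3DMSO and D0 overlapped. The log2 fold change of D3RA against D3DMSO was -4.08 ± 0.24 for Krt8 (adjusted p = 3.02e-10) and -2.50 ± 0.24 for Krt18 (adjusted p = 1.02e-07). In D3DMSO against D0, where 56.1% of all genes were called, 28.2% higher and 27.8% lower, 3 of the 10 genes rose, 4 fell and 3 were not called. Krt8 was among those that rose, but by a fold change of 0.60 (adjusted p = 0.0443) that lost its call in 9 alternatives, and Krt18 was not called (0.16, adjusted p = 0.582). The promoters of this pair, neighbours on chromosome 15, each held 1 E-box, 111 bases before the start of Krt8 and 214 bases before that of Krt18. They are shown for that motif, in capitals, each 5′ to 3′ on its gene's strand (RefSeq, GRCm38.p6, Krt8 at chr15:102004343-102004592 on the - strand and Krt18 at chr15:102027966-102028215 on the + strand).
Krt8: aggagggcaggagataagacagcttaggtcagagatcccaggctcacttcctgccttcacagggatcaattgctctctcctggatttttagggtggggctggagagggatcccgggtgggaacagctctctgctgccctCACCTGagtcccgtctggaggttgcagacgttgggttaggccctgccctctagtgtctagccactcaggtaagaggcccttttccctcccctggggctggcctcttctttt
Krt18: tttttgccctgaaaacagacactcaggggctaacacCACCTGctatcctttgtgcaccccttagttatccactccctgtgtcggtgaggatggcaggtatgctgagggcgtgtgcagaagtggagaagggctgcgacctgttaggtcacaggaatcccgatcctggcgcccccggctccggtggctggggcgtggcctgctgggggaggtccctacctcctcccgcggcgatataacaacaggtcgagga

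At day 6 the 3 keratins had the largest fold changes of the 10 genes between the treatments. Krt18 had 0.397, 0.574 and 0.376 CPM in the D6RA libraries, against 206, 233 and 202 CPM in the D6DMSO libraries. Krt8 had 0.430, 0.451 and 0.2505 CPM in the D6RA libraries, against 56.6, 64.7 and 46.7 CPM in the D6DMSO libraries. No libraries overlapped, and D6DMSO was the highest and D6RA the lowest of the 5 groups for both genes. D6RA was 476-fold below D6DMSO for Krt18 (log2 fold change -8.86 ± 0.24, adjusted p = 7.22e-15) and 148-fold below it for Krt8 (-7.18 ± 0.24, adjusted p = 1.21e-13). With RA, Krt18 fell further between the days, to 0.449 ± 0.109 CPM in D6RA, against 5.45 ± 1.64 CPM in D3RA (SD, n = 3 each; -3.56 ± 0.24, adjusted p = 1.86e-09). With DMSO, Krt18 was 6.80-fold and Krt8 2.29-fold higher in D6DMSO than in D3DMSO (log2 fold changes 2.80 ± 0.24 and 1.19 ± 0.24, adjusted p = 5.70e-08 and 0.000538). Keratins 8 and 18 have processed copies in mammalian genomes, and how reads shared with such copies were counted is not given in the sources used here.

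Krt19 encodes a small type I keratin of simple epithelia, including that of the early embryo's outer layer. Krt19 had 0.0331, 0.0410 and 0.0313 CPM in the D6RA libraries, which is 1 count in each, against 49.8, 58.4 and 55.0 CPM in the D6DMSO libraries, 3783 counts in all. The groups lay far apart, and the ratio of D6DMSO over D6RA levels from these counts was 1570, with a 95% interval of 537 to 7620 that covers counting error only. At day 3 Krt19 had 0.729, 0 and 1.83 CPM in the D3RA libraries, against 11.1, 10.5 and 10.5 CPM in the D3DMSO libraries and 2.05, 4.09 and 2.74 CPM in the D0 libraries. D3RA lay below both other groups, and the 0 in its second library allows up to 0.977 CPM (3 counts). Krt19 rose in D3DMSO against D0 (1.89 ± 0.59, adjusted p = 0.0115; 0.0501 without D0 replicate 1) and in D6DMSO against D3DMSO (2.33 ± 0.59, adjusted p = 0.00287). Its 3 groups of the DMSO route thus stood in the order D0, D3DMSO and D6DMSO from low to high without overlap between neighbours.

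The table held 4 keratin genes, these 3 and Krt10. Krt10, a type I keratin known from the upper epidermis, went the other way: it averaged 7.41 ± 0.768 CPM in D6RA and 4.95 ± 1.00 CPM in D6DMSO (SD, n = 3 each; 0.59, adjusted p = 0.0335). Krt8, Krt18 and Krt19 made up 8.11 to 11.6% of the keratin CPM in the D6RA libraries, against 98.3 to 98.7% in the D6DMSO libraries. The same share was 54.6 to 69.7% in the D3RA libraries, against 95.1 to 96.7% in the D3DMSO libraries and 93.0 to 96.4% in the D0 libraries. The groups treated with RA thus lay below all others in this share at both days.

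Grhl2 and Grhl3 are paralogous transcription factors that open the chromatin of epithelial genes, Cdh1 and claudin genes among them. Grhl2 had 0.546, 0.977 and 0.457 CPM in the D3RA libraries, against 3.31, 2.26 and 5.73 CPM in the D3DMSO libraries and 14.9, 10.1 and 12.5 CPM in the D0 libraries. Its 3 groups did not overlap, with D0 on top. The log2 fold change was -2.22 ± 0.35 in D3RA against D3DMSO (adjusted p = 3.38e-05) and -1.78 ± 0.35 in D3DMSO against D0 (adjusted p = 0.000350). Grhl3 had 0.273, 0 and 0.457 CPM in the D3RA libraries, against 6.08, 12.9 and 10.8 CPM in the D3DMSO libraries and 1.85, 0.629 and 0.851 CPM in the D0 libraries. D3DMSO stood alone at the top for Grhl3, with no overlap with any other group, whereas for Grhl2 it lay well below D0. Grhl3 was 8.97-fold higher in D3DMSO than in D0 (3.17 ± 0.53, adjusted p = 9.16e-05). The fall of Grhl3 in D3RA against D0 (-1.69 ± 0.53, adjusted p = 0.00981) rests on 4 counts in D3RA and was not called without D0 replicate 1 (adjusted p = 0.0621), without D3RA replicate 2 (adjusted p = 0.0560) or after thinning (adjusted p = 0.613).

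At day 6 Grhl3 had 0.0993, 0.164 and 0.125 CPM in the D6RA libraries, against 1.23, 0.924 and 0.569 CPM in the D6DMSO libraries. The difference between treatments remained, at -2.62 ± 0.53 (adjusted p = 0.000371; 0.421 after thinning), while D6DMSO was far below D3DMSO (-3.43 ± 0.53, adjusted p = 4.64e-05) and overlapped with D0. Grhl2 averaged 0.385 ± 0.0921 CPM in D6RA and 2.70 ± 0.492 CPM in D6DMSO (SD, n = 3 each; -2.77 ± 0.35, adjusted p = 2.17e-06), and its D6DMSO and D3DMSO libraries overlapped (-0.42, adjusted p = 0.321). Within a library, the deposited log2 value of Grhl3 minus that of Grhl2 averaged -3.54 ± 0.49 in D0, 1.41 ± 0.91 in D3DMSO and -1.60 ± 0.28 in D6DMSO (SD, n = 3 each). Gene length is the same in every library, so these differences can be compared between groups, and along the DMSO route Grhl3 was high relative to Grhl2 in D3DMSO, without overlap with D0 or D6DMSO. The promoter of Grhl3 had 1 E-box, 19 bases before its start, shown in capitals (RefSeq, GRCm38.p6, chr4:135573633-135573882, - strand).
Grhl3: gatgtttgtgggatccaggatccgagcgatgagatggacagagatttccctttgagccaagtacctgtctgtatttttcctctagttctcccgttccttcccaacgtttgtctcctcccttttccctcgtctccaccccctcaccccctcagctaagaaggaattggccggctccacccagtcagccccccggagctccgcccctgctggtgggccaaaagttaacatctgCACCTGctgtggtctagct

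Esrp1 encodes an RNA-binding protein that sets the epithelial pattern of splicing of many transcripts. Esrp1 had 0.364, 0 and 0.457 CPM in the D3RA libraries, 5 counts in all, against 8.29, 9.03 and 9.14 CPM in the D3DMSO libraries and 12.6, 12.6 and 11.4 CPM in the D0 libraries. D3RA lay below both other groups and D3DMSO below D0, without overlap. The log2 fold change of D3RA against D3DMSO was -4.64 ± 0.40 (adjusted p = 3.08e-08), and that of D3DMSO against D0 was not called (-0.46, adjusted p = 0.341; 0.0164 with voom weights and 0.0256 in a fit of those groups alone). At day 6 Esrp1 averaged 0.105 ± 0.0334 CPM in D6RA and 4.43 ± 0.335 CPM in D6DMSO, 42.3-fold lower with RA (-5.23 ± 0.40, adjusted p = 4.23e-09). Its paralog Esrp2 was not called in D3RA against D3DMSO (-0.08, adjusted p = 0.870) and was lower in D6RA than in D6DMSO (-1.18, adjusted p = 0.0125), with group means of 1.17 to 3.23 CPM. The call of Esrp1 in D6DMSO against D3DMSO (-1.0, adjusted p = 0.0408) was lost when any 1 of the 6 libraries was left out.

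**Figure D2:**
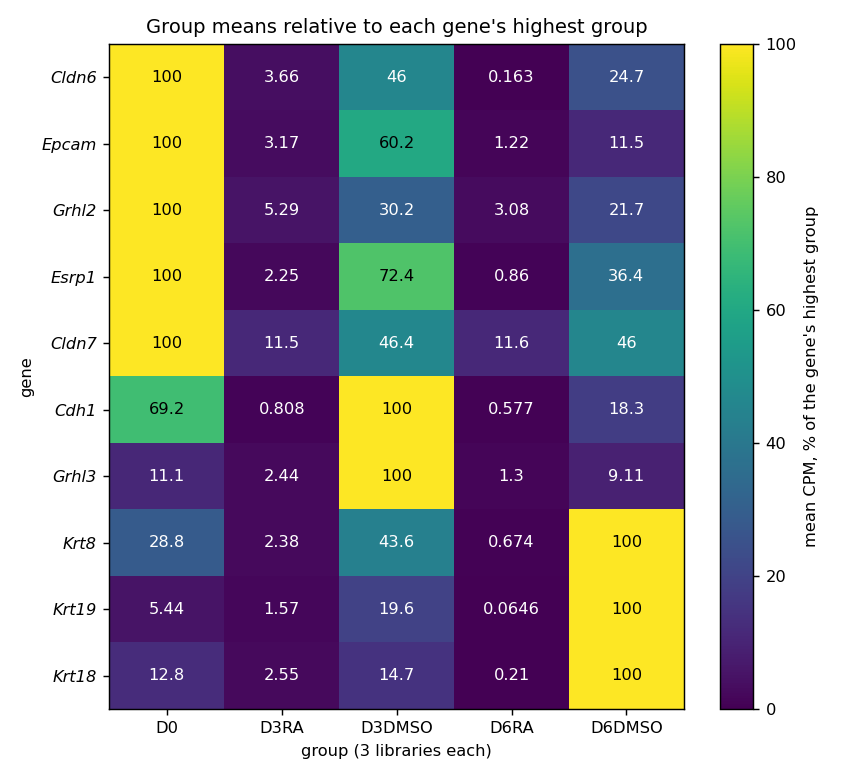
Mean CPM of each gene in each group as a percentage of the gene's highest group (3 libraries a group). Cldn6, Epcam, Grhl2, Esrp1 and Cldn7 were highest in D0, Cdh1 and Grhl3 in D3DMSO, and Krt8, Krt18 and Krt19 in D6DMSO, whereas no gene exceeded 11.6% of its maximum in an RA group.

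Along the DMSO route, adhesion and keratin genes thus moved apart. In D6DMSO against D3DMSO, where 56.4% of all genes were called, 28.3% higher and 28.1% lower, 3 of the 10 genes rose (Krt8, Krt18 and Krt19), 5 fell (Cdh1, Epcam, Esrp1, Grhl3 and Cldn6) and 2 were not called (Grhl2 and Cldn7). Epcam fell by 2.36 ± 0.17 on the log2 scale (SE; adjusted p = 9.66e-09). As shares of each gene's highest group, D6DMSO held 18.3% for Cdh1 and 11.5% for Epcam, but 36.4% for Esrp1 and 46.0% for Cldn7. Within a library, the log2 value of Krt8 minus that of Cdh1 averaged -2.33 ± 0.30 in D0, -2.24 ± 0.51 in D3DMSO and 1.38 ± 0.27 in D6DMSO (SD, n = 3 each). The D6DMSO libraries stood apart from the D0 and D3DMSO libraries in this difference, which a scaling of a whole library cannot move.

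With RA the further changes from day 3 to day 6 were at low levels. In D6RA against D3RA, where 69.3% of all genes were called, 37.2% higher and 32.0% lower, 8 of the 10 genes fell and Grhl3 and Cldn7 were not called. The falls of Epcam, Krt8, Krt18 and Cldn6 were without overlap between libraries. Those of Cdh1, Esrp1, Grhl2 and Krt19 overlapped, and each lost its call when all libraries were thinned to 1 depth. A single count was worth 0.0313 to 0.0410 CPM in D6RA libraries and 0.0911 to 0.457 CPM in D3RA libraries. With 2 counts added in place of 0.5, the fold change of Esrp1 was -0.52, against -1.59 as reported. For Krt19 the ratio of D3RA over D6RA levels from the counts was 21.3 (95% counting interval 5.75 to 118). Cldn7 averaged the same in both groups (log2 fold change 0.01 ± 0.53, adjusted p = 0.992), but the value turned with the setting: without D3RA libraries 2 and 3 it was 1.40 (adjusted p = 0.0478), and after thinning it was -2.08 (adjusted p = 0.00185).

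The keratins of the pair did not move in step either. Within a library, the log2 value of Krt18 minus that of Krt8 was 1.82, 1.75 and 2.15 in the D3RA libraries, against 0.54, 0.08 and 0.36 in the D3DMSO libraries and 0.71, 0.88 and 0.71 in the D0 libraries. At day 6 it was -0.11, 0.33 and 0.56 in the D6RA libraries, against 1.86, 1.85 and 2.12 in the D6DMSO libraries. Krt18 was thus high relative to Krt8 in D3RA, where both were low, and in D6DMSO, where both were at their highest, without overlap with the remaining groups. D3RA held 19 counts of Krt8 in all and D6RA 32, so the RA values rest on few counts.

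**Figure D3:**
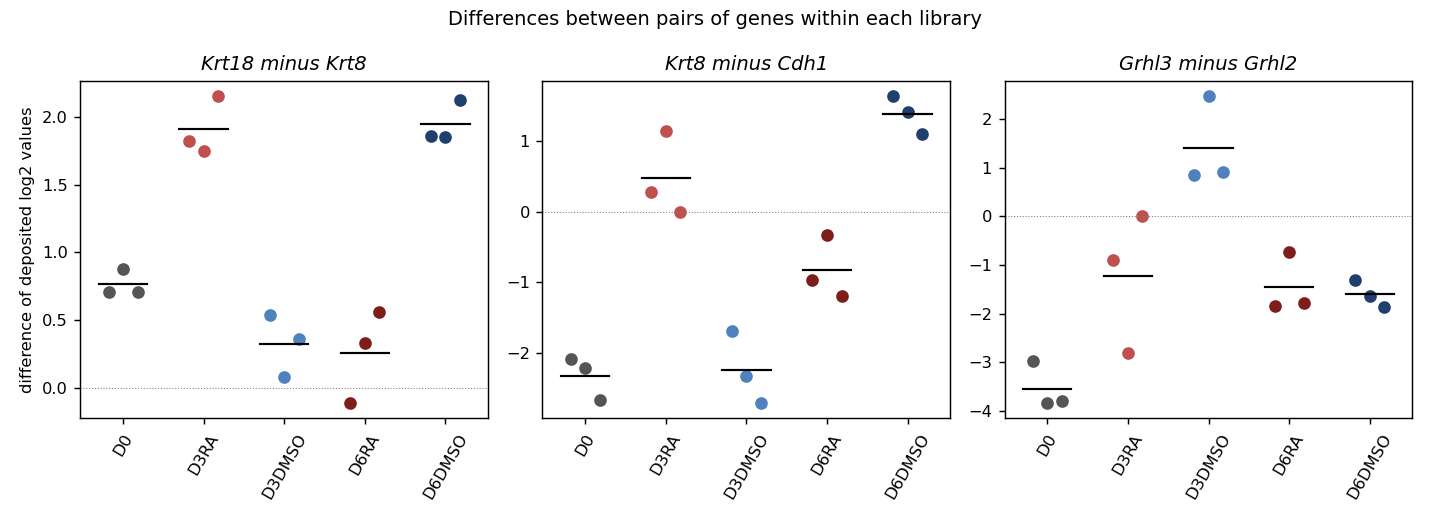
Difference of the deposited log2 values of 2 genes within each library (y axis, log2 units), with 1 point per library and a line at the group mean, for Krt18 minus Krt8, Krt8 minus Cdh1 and Grhl3 minus Grhl2. Krt8 minus Cdh1 is negative in D0 and D3DMSO and above 1 in D6DMSO, and Grhl3 minus Grhl2 is above 0 only in D3DMSO, apart from 1 D3RA library at 0.

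The treatment difference itself changed between the days for 7 of the 10 genes. This interaction, the difference between the treatments at day 6 less the one at day 3, was called for 48.5% of all genes, 25.4% higher and 23.1% lower. It was lower, a wider gap at day 6, for Krt18 (-6.36 ± 0.33, adjusted p = 1.93e-10), Krt19 (-5.94 ± 0.83, adjusted p = 1.77e-05), Cldn6 (-3.33 ± 0.49, adjusted p = 3.04e-05) and Krt8 (-3.10 ± 0.34, adjusted p = 1.32e-06). It was higher, a narrower gap at day 6, for Grhl3 (2.24 ± 0.76, adjusted p = 0.0217), Cdh1 (1.82 ± 0.35, adjusted p = 0.000360) and Epcam (0.95 ± 0.24, adjusted p = 0.00384). Esrp1, Grhl2 and Cldn7 were not called (adjusted p = 0.410, 0.376 and 0.873), although Esrp1 was called without D3RA replicate 2 (-1.16, adjusted p = 0.0256; -0.59 with it). Each difference is taken within a day, so what a day's libraries have in common cancels, but the depth of a day sets how low a level can be read: after thinning, Cldn6 lost its call (-1.28, adjusted p = 0.138) and Cldn7 gained one (-2.59, adjusted p = 0.00880). Grhl3 lost its call when any of 4 single libraries was left out (adjusted p = 0.0502 to 0.0590).

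**Figure D4:**
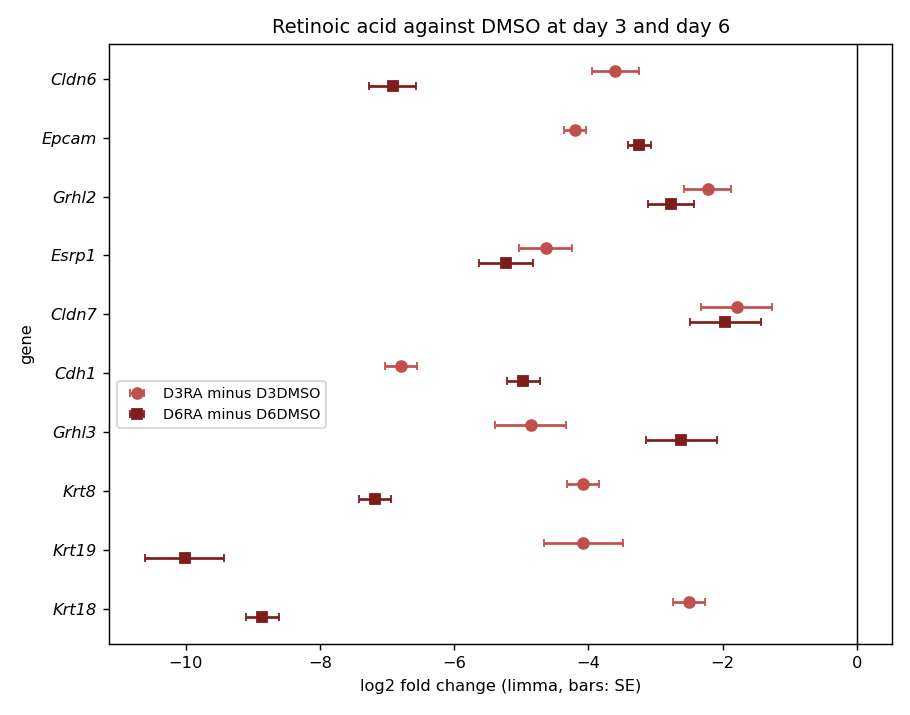
Log2 fold change of each gene (x axis) in D3RA against D3DMSO (circles) and in D6RA against D6DMSO (squares), with bars for the SE of the limma fit (3 libraries a group). All values are negative; the squares lie furthest to the left for Krt19 (-10.02), Krt18 (-8.86) and Krt8 (-7.18), and lie right of the circles for Cdh1, Epcam and Grhl3.

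Markers of other cell types also differed between the groups, in both directions. The summed level of 7 measured endoderm markers (of 14 listed) was 37.8 to 40.3 CPM in D6RA, against 248 to 263 CPM in D6DMSO, and 70.0 to 84.3 CPM in D3RA, against 182 to 204 CPM in D3DMSO. Most of this sum was Apoe at day 3 (54.5 CPM in D3RA and 162 CPM in D3DMSO on average), and of the 7 markers 2 rose (Sox7 and Sox17) and 4 fell in D3RA against D3DMSO, while 6 fell in D6RA against D6DMSO. That of 6 trophectoderm markers (of 9) was 6.14 to 7.46 CPM in D6RA, against 57.8 to 67.3 CPM in D6DMSO, and 12.3 to 20.1 CPM in D3RA, against 181 to 221 CPM in D3DMSO. The D3DMSO sum was nearly all Cdx2 and Eomes (95.6 and 94.2 CPM on average), which are also genes of the primitive streak and mesoderm. Of the 6 markers, 1 rose (Gata2) and 3 fell in D3RA against D3DMSO, and all 6 fell in D6RA against D6DMSO. That of 5 markers of nascent mesoderm (of 8) was 23.5 to 33.5 CPM in D3RA, against 1030 to 1180 CPM in D3DMSO and 4.63 to 5.03 CPM in D0. Most of the D3RA sum was Lhx1 (25.1 CPM on average). Of the 5 markers 3 rose and 1, T, fell in D3RA against D0 (-3.12 for T, adjusted p = 1.31e-05), and all 5 fell in D3RA against D3DMSO. The summed level of 7 endothelial markers (of 8) was 178 to 244 CPM in D3RA, against 34.9 to 64.9 CPM in D3DMSO, and 23.4 to 32.5 CPM in D6RA, against 149 to 175 CPM in D6DMSO. Most of the sum in D3DMSO and in D6DMSO was Kdr (46.8 and 124 CPM on average). Of these 7 markers 6 rose in D3RA against D3DMSO, while 4 fell and 3 were not called in D6RA against D6DMSO. The pluripotency sum at day 6 was 178 to 199 CPM in D6RA, against 115 to 136 CPM in D6DMSO, but in D6RA it was almost all Sox2 (187 CPM on average). Of the 8 markers 6 fell and 2 rose in D6RA against D6DMSO, with a median log2 fold change of -5.46. Of 8 surface ectoderm markers, only Tfap2a was measured, which rose with RA at both days. Cer1 and Tnnt2 were at 0 in all D3RA libraries, Sox7, Emcn and Neurog1 in all D3DMSO libraries, Dppa4 in all D6RA libraries, Fgf4 in all D3RA libraries and Wnt3a in all D0 libraries. The part of these cell types in the levels of the 10 genes was not tested.

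Beta-catenin and p120-catenin, partners of E-cadherin inside the cell, changed far less at the RNA level than Cdh1. Ctnnb1, which encodes beta-catenin, averaged 1119 ± 118 CPM in D3RA and 901 ± 18.5 CPM in D3DMSO (SD, n = 3 each; log2 fold change 0.31, adjusted p = 0.00230), and Ctnnd1, which encodes p120-catenin, 175 ± 9.81 CPM in D3RA and 199 ± 17.4 CPM in D3DMSO (-0.18, adjusted p = 0.0422). Of 11 listed genes of adherens junctions, surface molecules such as Cdh3 included, 2 rose and 7 fell in D3RA against D3DMSO, with a median of -0.54. In D6RA against D6DMSO 2 rose and 8 fell, with a median of -0.60. Beside these stand 62.1% and 65.8% of all genes called at day 3 and day 6. Cdh3, which encodes P-cadherin and is the coding neighbour of Cdh1 in RefSeq, had 0.265, 0.246 and 0.219 CPM in the D6RA libraries, against 34.3, 35.4 and 36.3 CPM in the D6DMSO libraries (-7.09, adjusted p = 3.39e-12). In D3DMSO, where Cdh1 was at its highest, Cdh3 was low, at 4.93 ± 1.36 CPM, against 19.2 ± 4.67 CPM in D0 (SD, n = 3 each; -1.95, adjusted p = 4.90e-05), and it was not called in D3RA against D3DMSO (-0.54, adjusted p = 0.137). Cdh3 thus had its highest level in D6DMSO, as the keratins did, and not where Cdh1 had its own.

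Other cadherins rose where Cdh1 fell. Cdh2, which encodes N-cadherin of neural and mesenchymal cells, had 209, 230 and 267 CPM in the D3RA libraries, against 75.7, 133 and 117 CPM in the D3DMSO libraries and 74.5, 74.4 and 77.9 CPM in the D0 libraries. D3RA lay above both without overlap (1.15 against D3DMSO, adjusted p = 3.05e-06). At day 6 Cdh2 averaged 362 ± 3.61 CPM in D6RA and 102 ± 6.35 CPM in D6DMSO (SD, n = 3 each; 1.82, adjusted p = 7.17e-09), whereas D6DMSO and D3DMSO did not differ by a call (-0.05, adjusted p = 0.788), although Cdh1 was 5.46-fold lower in D6DMSO. Of the 17 cadherin genes measured, Cdh1 included, 10 rose and 4 fell in D3RA against D3DMSO, where 62.1% of all genes were called. In D6RA against D6DMSO, where 65.8% were called, 11 rose and 2 fell, Cdh1 and Cdh3. Among those that rose in D6RA against D6DMSO were Cdh22 (5.14) and Cdh12 (4.85).

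Desmosomes anchor keratin filaments at the cell surface, and most of their measured genes fell with RA. Of 10 measured genes of desmosomes and hemidesmosomes, 1 rose and 8 fell in D3RA against D3DMSO, with a median of -1.79. In D6RA against D6DMSO 1 rose and 7 fell, with a median of -2.01. Beside these stand 62.1% and 65.8% of all genes called at day 3 and day 6. Dsp, which encodes the desmoplakin that binds keratin filaments, had 19.9, 19.5 and 23.8 CPM in the D3RA libraries, against 50.8, 82.3 and 88.5 CPM in the D3DMSO libraries and 8.21, 8.18 and 10.7 CPM in the D0 libraries. D3RA thus lay below D3DMSO but above D0 (1.23, adjusted p = 7.54e-06), unlike the 10 genes, which were all below D0. At day 6 Dsp had 6.36, 6.43 and 7.01 CPM in the D6RA libraries, against 137, 176 and 159 CPM in the D6DMSO libraries (-4.56, adjusted p = 5.12e-13). The desmosomal cadherins Dsg2 and Dsc2 fell in D6RA against D6DMSO, with log2 fold changes of -6.39 and -4.96. In D6DMSO against D3DMSO 5 of the 10 rose and 2 fell, where 28.3% of all genes were called higher and 28.1% lower.

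Of 18 measured genes of tight junctions and apical polarity, 2 rose and 10 fell in D3RA against D3DMSO, where 62.1% of all genes were called. In D6RA against D6DMSO, where 65.8% were called, 1 rose and 13 fell. F11r, which encodes a junctional adhesion molecule, had 51.3, 40.1 and 55.3 CPM in the D3RA libraries, against 30.2, 41.7 and 36.6 CPM in the D3DMSO libraries. These groups overlapped, with a small rise in D3RA (0.43, adjusted p = 0.0327). At day 6 F11r had 0.927, 1.52 and 0.971 CPM in the D6RA libraries, against 90.4, 90.6 and 90.3 CPM in the D6DMSO libraries (-6.33, adjusted p = 6.96e-15). Ocln, which encodes occludin, likewise was higher in D3RA than in D3DMSO (1.05, adjusted p = 0.00505) and lower in D6RA than in D6DMSO (-4.01, adjusted p = 2.41e-09). In D6RA against D3RA both fell, by log2 fold changes of -5.43 for F11r and -5.41 for Ocln, beside -0.61 for Cdh1. Llgl2, a gene of basolateral polarity, fell in D6RA against D6DMSO (-5.21) and rose in D6DMSO against D3DMSO (1.93, adjusted p = 3.54e-07), 1 of 6 genes of the 18 that did. Another 7 of the 18 fell in D6DMSO against D3DMSO, where 28.3% of all genes were called higher and 28.1% lower.

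Of 8 measured epithelial regulators, 1 rose and 4 fell in D3RA against D3DMSO, where 62.1% of all genes were called, a share near theirs. In D6RA against D6DMSO, where 65.8% were called, 1 rose and 7 fell. The gene that rose was Tfap2a at both days, a factor of neural crest and surface ectoderm, with 51.0 ± 5.41 CPM in D6RA and 2.13 ± 0.321 CPM in D6DMSO (SD, n = 3 each; 4.58, adjusted p = 2.29e-09). Gata3, a factor of trophectoderm and several epithelia, averaged 0.275 ± 0.169 CPM in D6RA and 29.3 ± 2.70 CPM in D6DMSO (-6.88, adjusted p = 2.19e-08). Of 11 measured genes of the epithelial surface and trafficking, 2 rose and 9 fell in D3RA against D3DMSO, and 2 rose and 8 fell in D6RA against D6DMSO. Beside these stand the same 62.1% and 65.8% of all genes called. Those that rose were Cd24a (1.55) and Myo5b (0.95) in D3RA against D3DMSO, and Cd24a (1.52) and Ezr (1.04) in D6RA against D6DMSO. Spint1, an inhibitor of epithelial surface proteases, fell with RA and along the DMSO route, as Epcam did (-4.44 in D3RA against D3DMSO and -2.34 in D6DMSO against D3DMSO). Lgals3, which encodes galectin-3, rose in D6DMSO against D3DMSO (0.77, adjusted p = 0.0363), with 43.0 ± 3.21 CPM in D6DMSO and 25.4 ± 4.62 CPM in D3DMSO (SD, n = 3 each).

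Known repressors of Cdh1 stood highest in different groups. Zeb1 had 120.4, 149 and 123 CPM in the D3RA libraries, against 39.1, 49.3 and 46.6 CPM in the D3DMSO libraries and 37.5, 43.9 and 41.1 CPM in the D0 libraries. Every D3RA library lay above the others (1.54 against D3DMSO, adjusted p = 4.74e-10), and at day 6 Zeb1 averaged 206 ± 4.05 CPM in D6RA and 86.3 ± 3.26 CPM in D6DMSO (SD, n = 3 each; 1.26, adjusted p = 3.62e-09). Zeb2 averaged 134 ± 18.5 CPM in D3RA, 91.7 ± 16.3 CPM in D3DMSO and 61.5 ± 5.79 CPM in D0 (SD, n = 3 each). At day 6 Zeb2 averaged 205 ± 8.19 CPM in D6RA and 133 ± 2.13 CPM in D6DMSO, so its D6DMSO level was near that of D3RA. Snai1, which encodes Snail, had 0.364, 0 and 0.457 CPM in the D3RA libraries, against 17.5, 20.5 and 17.2 CPM in the D3DMSO libraries and 0.410, 0.472 and 0.284 CPM in the D0 libraries. D3DMSO stood alone at the top (5.40 against D0, adjusted p = 9.52e-09), in the group where Cdh1 was at its highest. Twist1 averaged 32.7 ± 5.86 CPM in D6DMSO and 0.935 ± 0.277 CPM in D3DMSO (SD, n = 3 each; 5.03, adjusted p = 1.85e-09). Of 7 measured mesenchymal regulators and effectors, 5 rose and 2 fell (Snai1 and Fn1) in D3RA against D3DMSO. In D6RA against D6DMSO 4 rose and 3 fell, Twist1 (-6.7) and Fn1 (-1.24) among those that fell. Vim, which encodes vimentin, the filament of neural progenitors and mesenchymal cells, averaged 2205 ± 36.6 CPM in D6RA and 311 ± 17.8 CPM in D6DMSO (SD, n = 3 each; 2.83, adjusted p = 5.51e-15).

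**Figure D5:**
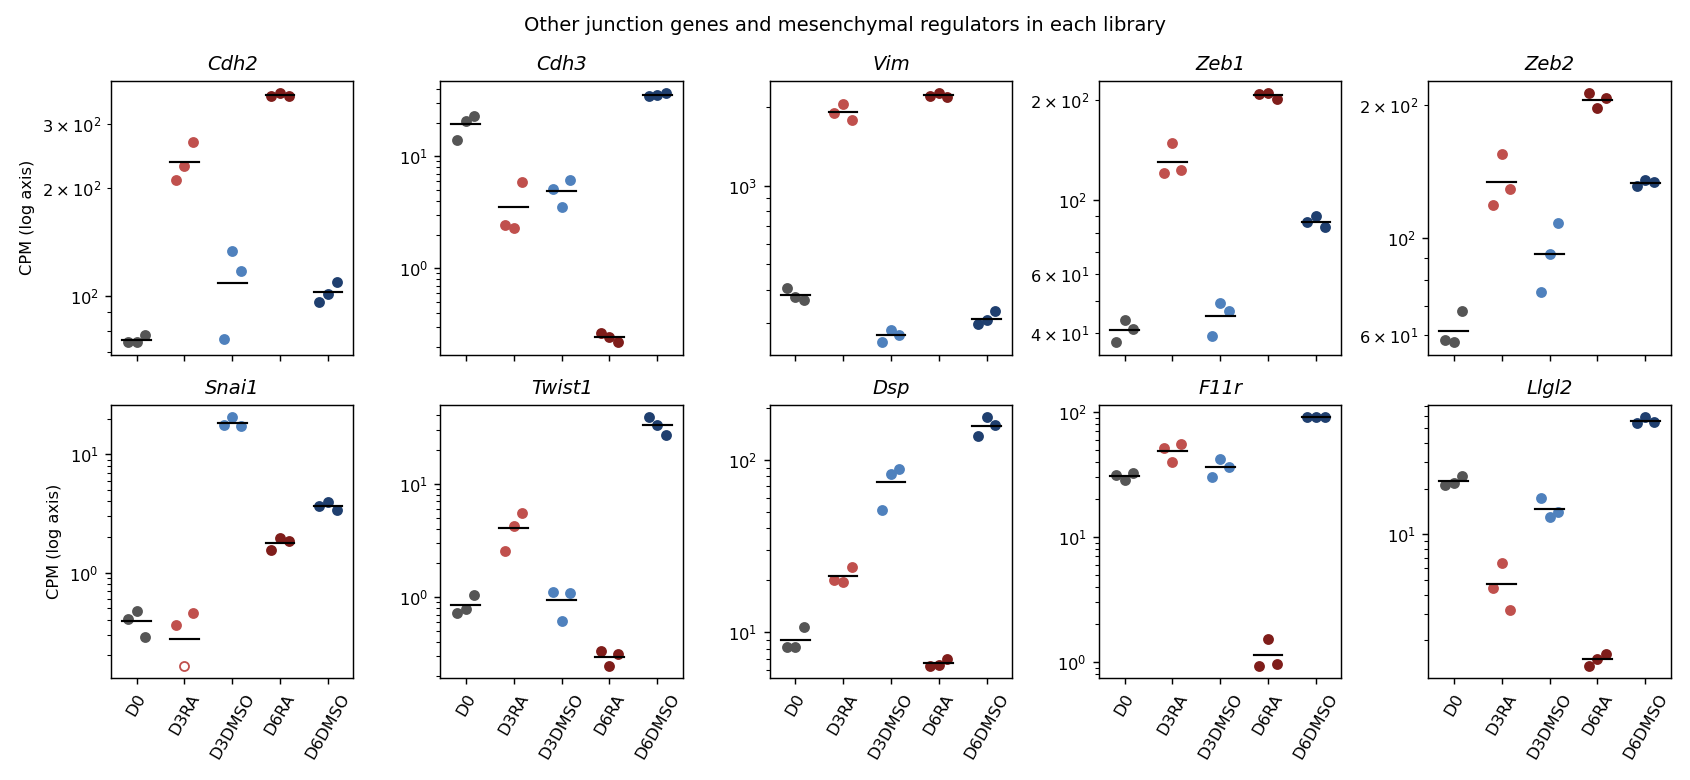
CPM (log axis) of 10 other genes in each library of the 5 groups, with 1 point per library, a line at the group mean and open points for 0 counts, drawn at the level of 0.5 counts. Cdh2, Vim, Zeb1 and Zeb2 are highest in D6RA, Snai1 in D3DMSO, and Cdh3, Twist1, Dsp, F11r and Llgl2 in D6DMSO.

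Likeness among the 10 genes did not go by role alone. Over the 15 libraries, Pearson's r of log2 values was 0.972 between Cdh1 and Esrp1, 0.968 between Krt8 and Krt18 and 0.959 between Cdh1 and Epcam, and was lowest, 0.526, between Grhl3 and Cldn7. It was 0.777 between the claudins Cldn6 and Cldn7 and 0.618 between the paralogs Grhl2 and Grhl3. Among 11619 genes with at least 5 CPM in their highest group, the named genes most like Cdh1 were Ctsc (0.989), Nanog (0.988), Nr6a1 (0.987), Naprt (0.987) and Nodal (0.985). Those most like Krt8 were Zfp280b (0.987), Nfatc4 (0.985), Diaph3 (0.982), Trub1 (0.982) and Lama5 (0.981). These are descriptions over libraries that share a group, a depth and the split between RA and the other groups. Over the 9 D0 and D3 libraries alone the same r ran from 0.983 to 0.996 for Cdh1 and from 0.951 to 0.982 for Krt8.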

How the data were processed

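RNA was measured in 15 libraries, 3 in each of 5 groups taken from the sample titles; the 18 chromatin samples of the series were not analysed here. Libraries were made from total RNA depleted of ribosomal RNA with a stranded kit and read single end, per the labels. The authors deposited log2 values for 14717 Ensembl genes. Per the submitters' processing notes, mm9, STAR 2.6.0c, Trimmomatic 0.32, limma, edgeR and featureCounts were used, with no order or role given; strand settings and the treatment of multiply mapped reads are not given in the sources used here. IDs were paired with symbols from an NCBI table (14228 matched).

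The deposited log2 values are those of a count plus 0.5 times a constant per library: 100% of the values gave whole counts within 0.05. CPM used the library sizes implied by the deposited scale. The log2 values were tested with limma 3.58.1 (trend, 15 libraries, 10 residual degrees of freedom, R 4.3.3), with Benjamini-Hochberg adjustment over all genes and no filter; the added 0.5 moves fold changes of low genes, towards 0 at equal depth, and towards a fall in the deeper library where depths differ, as in D6RA against D3RA. CPM means and log2 fold changes are not on the same scale. Total counts ran from 3.55 M to 49.6 M, and counting intervals are exact binomial (95%).

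The genes and gene lists were chosen with earlier results of these data known. Besides the 10 genes, a panel, marker genes and the genes most like Cdh1 or Krt8, the named genes were drawn from a rule. For each list and comparison it took 2 called genes at either end of the fold changes at 1 CPM or more. Not all genes that met the rule are named. The panel (Cdh2, Snai1, Zeb1, Zeb2, Esrp2, Ctnnb1, Ctnnd1, Cldn3 and Cldn4) is named whatever its values. The gene pairs compared within libraries were chosen after values were seen. Spread between same-numbered libraries was correlated for D3RA and D3DMSO (r = 0.33, 0.11 and 0.165 for numbers 1 to 3). These met the rule of an r over 0.1 in every pair, and no other pair of groups did. The labels state no pairing. Library 1 of both groups also had the lower share of the 4 genes that include Lars2. This likeness and a shared culture cannot be told apart. The reported tests are unpaired, and the replicate block is an alternative. Alternatives were quantile normalization, median-of-ratios scaling, a filter of 5 CPM in 3 libraries, limma without the trend, voom weights, 2 counts added, the compared groups alone, a replicate block, thinning to 2189364 counts (the smallest scaled library) and each library left out. The fits without D3RA libraries 2 and 3 and of D0 and D3 libraries alone were chosen after seeing the data. In simulated counts the test recovered planted changes, but only genes at 1 CPM or more in D3DMSO were changed. The spread between simulated libraries was fixed and not set from these data. The simulation thus says little of levels of a few counts or of the uneven D3RA, D3DMSO and D0 libraries. Of the RefSeq promoter entries, the 250 bases before the start were used.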

Additional observations from a re-analysis of the deposited data

Results flagged for a closer look

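For 7 of the 10 genes the RA minus DMSO difference at day 6 differed from that at day 3 by the interaction test of limma. On the log2 scale the day 6 difference less the day 3 difference was -6.36 for Krt18, -5.94 for Krt19, -3.33 for Cldn6 and -3.10 for Krt8, which is a wider gap at day 6, and 2.24 for Grhl3, 1.82 for Cdh1 and 0.95 for Epcam, which is a narrower one. The value for Cldn6 was -1.28 after thinning to 1 depth, with no call (adjusted p = 0.138), and that for Grhl3 rests on 4 counts in D3RA and 11 in D6RA.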

How the results depend on the processing

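In D3RA against D3DMSO, D6RA against D6DMSO and D3RA against D0, 9 or 10 genes were called under each alternative run, none with a change of direction; Cldn7 did not pass the filter of 5 CPM. Of 60 calls over the 7 comparisons, 45 were past the threshold in every alternative and 15 lost it in at least 1, and of 10 results without a call 6 gained it in at least 1. The share of all genes called in each alternative is not given here, so lost calls are not read as particular to these genes. In D3DMSO against D0, 4 genes were called after thinning, against 7 as reported, and 5 or 6 when a library was left out. In D6RA against D3RA, 5 were called after thinning, with 2 counts added and in the fit of these groups alone, against 8 as reported, and 6 to 8 when a library was left out. The fit with a replicate block, which pairs libraries by number, called 10, 7, 10, 10, 8, 8 and 7 of the 10 genes in D3RA against D0, D3DMSO against D0, D3RA against D3DMSO, D6RA against D6DMSO, D6RA against D3RA, D6DMSO against D3DMSO and the interaction, the same counts as without it. Reversed were Cldn7 (-2.08 after thinning) and Cldn4 (0.81 with 2 counts added and 1.38 without D3RA libraries 2 and 3) in D6RA against D3RA, Ctnna1 in D3DMSO against D0 (0.06 after quantile normalization) and Spint1 in the interaction (0.69 after thinning); fewer counts are the construction of thinning, and the cause was not tested further. A fit with no filter is the reported one. Levels of a few counts in the RA groups are limited by depth.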
